A study of Mus musculus with 10 samples.

Results

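The 9 genes followed here move chloride, bicarbonate and sodium across the intestinal epithelium and were measured in the RNA of cells sorted by their level of guanylyl cyclase C (GUCY2C). They were taken by name as the rows of Cftr, Clcn2, Slc12a2, Slc26a3, Slc26a6, Slc9a3, Slc9a2, Slc4a4 and Slc4a7, which are 9 of the 54532 genes in the count table, and all 9 passed the filter on low counts. The cells came from the small intestinal epithelium of 5 litter-matched Gucy2c-GFP mice, 10 weeks old and of the outbred CD1/ICR stock, a transgenic line in which the Gucy2c promoter drives GFP. Flow sorting by GFP gave a high group (GUCY2Chi) and a medium group (GUCY2Cmed), each with 5 libraries of 20000 cells, and every cell of both groups carried the reporter. The labels call the medium libraries both Medium and Lo. Each group has libraries numbered 2, 7, 12, 14 and 15, and a number shared by both groups was read as 1 mouse. Because the gate follows the Gucy2c promoter, the level of Gucy2c itself is what the sort selected.

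GUCY2C makes cyclic GMP when guanylin or uroguanylin binds it, and cyclic GMP acts through its kinase on the apical membrane of epithelial cells. There it opens the chloride and bicarbonate channel CFTR and inhibits the sodium-proton exchanger NHE3, so that salt and water stay in or enter the lumen. Chloride reaches the cell through the basolateral sodium-potassium-chloride cotransporter, bicarbonate enters with sodium, and apical anion exchangers trade chloride for bicarbonate.

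The libraries held between 10903958 and 15307932 counted reads. Levels are given in cpm, counts scaled to the library size with TMM factors, and positions on GRCm38. The fit was edgeR's quasi-likelihood test over 15703 genes, with Benjamini-Hochberg adjustment over all of them and a threshold of 0.01. All 18 genes of an enteroendocrine marker list were called higher in GUCY2Chi cells, where 13.9% of all genes were. Their summed level was between 40729 and 161970 cpm there and between 123.0 and 349.4 cpm in GUCY2Cmed cells. A list of 20 enterocyte markers summed to between 5472 and 36326 cpm in GUCY2Chi cells and between 67309 and 86570 cpm in GUCY2Cmed cells, so both labelled sorts held epithelial transcripts. Within GUCY2Chi the libraries of mice 12 and 15 stood apart, with 35588 and 36326 cpm of that list against at most 6466 cpm in the others. Transcripts of 12 forebrain neuron genes were present at levels that followed neither group, from 35.5 to 1295 cpm in GUCY2Chi and from 23.5 to 728 cpm in GUCY2Cmed. In bulk libraries such as these, fewer cells of a type and less RNA per cell cannot be told apart.

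Of the 9 genes, 8 had a lower mean level in GUCY2Chi cells and Slc9a2 alone had a higher one. The test called 3 of them lower, Cftr, Slc4a4 and Slc4a7, and none higher, where 8.79% of all genes tested were called lower and 13.9% higher. Another 5 had an adjusted p between 0.01 and 0.05, which makes 8 of 9 at the looser threshold of 0.05, where 17.6% of all genes were lower. At an unadjusted p under 0.05 the count was also 8, against 21.9% of all genes. The 2 groups did not overlap for 7 genes, all lower in GUCY2Chi cells, while 13.2% of all genes were lower and 16.7% higher without overlap. The median log2 fold change was -2.05 over the 9 genes and 0.09 over all genes tested.

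**Figure D1:**
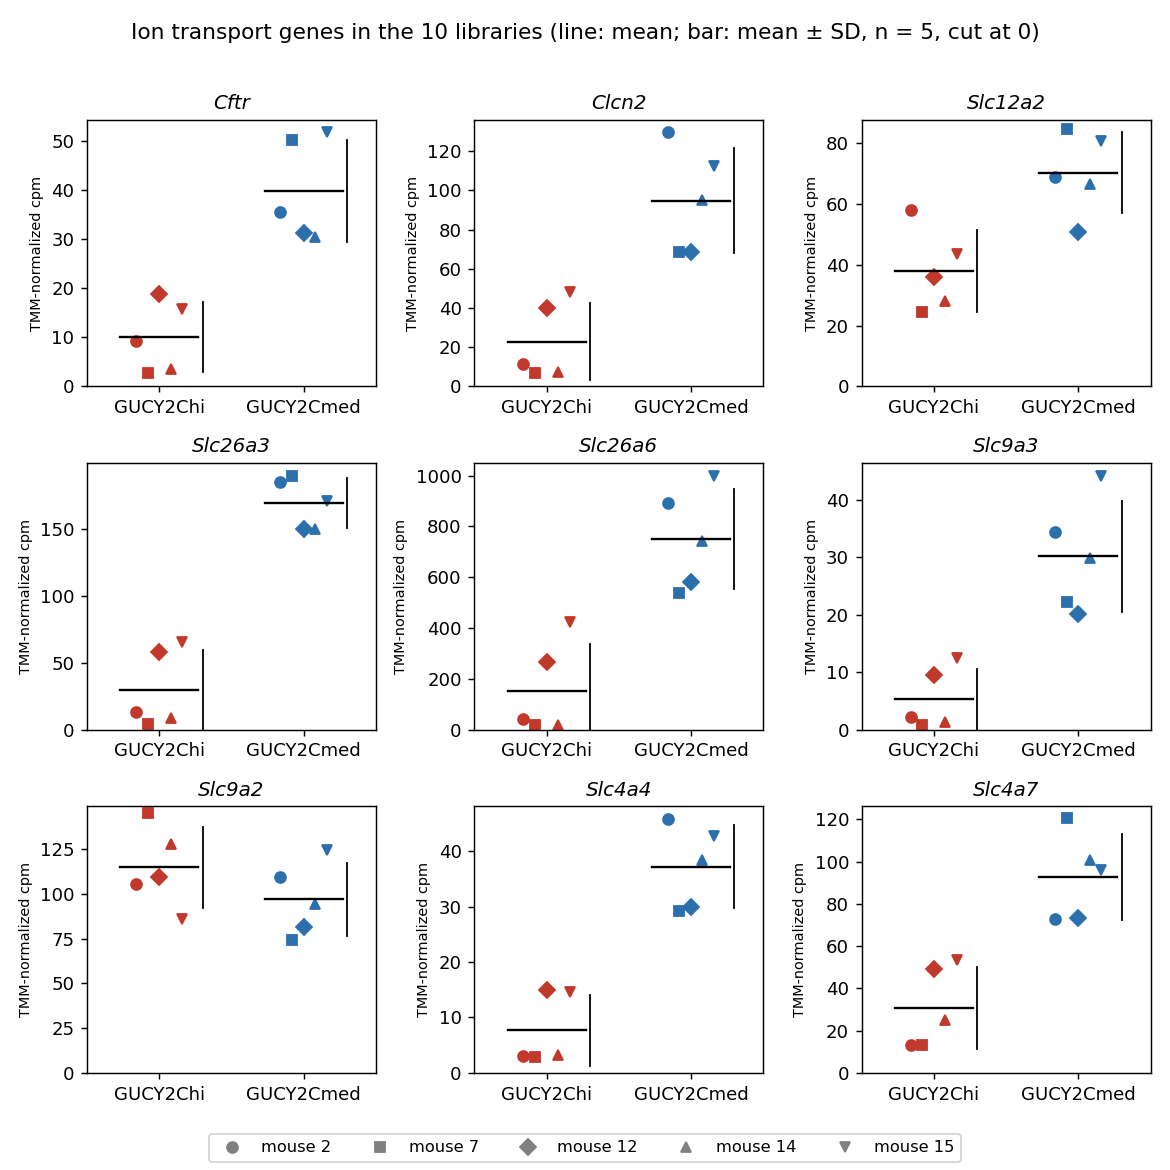
TMM-normalized cpm of each gene in the 5 GUCY2Chi libraries (red) and the 5 GUCY2Cmed libraries (blue), 1 point a library and 1 symbol a mouse, with the mean (line) and 1 SD each way (bar, cut at 0). The groups are separate for all but Slc12a2 and Slc9a2, and in GUCY2Chi the libraries of mice 12 and 15 sit above the rest for Cftr, Clcn2, Slc26a3, Slc26a6, Slc9a3, Slc4a4 and Slc4a7.

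The promoters of 4 of these genes are shown here, the called channel Cftr and cotransporter Slc4a4 and the exchangers Slc26a3 and Slc9a3, which had the most negative fold changes. They are RefSeq sequences on GRCm38.p6 from 250 bases before to 50 bases after the transcript start, all on the plus strand, and 7 of the 9 genes had such an entry that could be given. Slc9a2 had none. Of 2 entries for Slc4a4 the one at the start of the gene is shown, and that of Slc26a3 lies within the span the count table gives the gene. Capitals mark matches on either strand to 4 motifs picked after the sequences had been seen. These were the GC box GGGCGG, found in 35.7% of 32851 promoters of this length, the HNF1 core site GTTAAT (7.10%), the CDX site TTTATG (11.9%) and the cAMP response element TGACGTCA (1.79%).
Cftr, chr6:18170437-18170736: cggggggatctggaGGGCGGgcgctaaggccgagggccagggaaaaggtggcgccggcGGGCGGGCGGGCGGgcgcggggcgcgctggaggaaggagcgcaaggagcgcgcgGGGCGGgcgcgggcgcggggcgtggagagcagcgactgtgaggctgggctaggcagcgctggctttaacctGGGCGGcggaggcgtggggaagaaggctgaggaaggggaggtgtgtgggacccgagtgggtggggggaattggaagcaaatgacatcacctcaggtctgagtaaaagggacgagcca
Slc4a4, chr5:88887010-88887309: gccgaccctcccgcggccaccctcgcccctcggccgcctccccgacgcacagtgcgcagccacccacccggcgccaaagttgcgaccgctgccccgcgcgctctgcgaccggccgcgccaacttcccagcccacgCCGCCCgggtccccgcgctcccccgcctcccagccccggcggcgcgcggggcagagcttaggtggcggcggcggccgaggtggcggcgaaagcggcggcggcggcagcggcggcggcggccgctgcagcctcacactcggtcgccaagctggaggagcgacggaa
Slc26a3, chr12:31437969-31438268: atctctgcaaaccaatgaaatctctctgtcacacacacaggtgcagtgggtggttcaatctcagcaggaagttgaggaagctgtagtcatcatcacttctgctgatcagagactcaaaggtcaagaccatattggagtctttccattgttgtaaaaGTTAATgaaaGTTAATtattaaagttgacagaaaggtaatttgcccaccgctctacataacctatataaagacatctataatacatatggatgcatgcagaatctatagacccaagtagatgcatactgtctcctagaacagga
Slc9a3, chr13:74121163-74121462: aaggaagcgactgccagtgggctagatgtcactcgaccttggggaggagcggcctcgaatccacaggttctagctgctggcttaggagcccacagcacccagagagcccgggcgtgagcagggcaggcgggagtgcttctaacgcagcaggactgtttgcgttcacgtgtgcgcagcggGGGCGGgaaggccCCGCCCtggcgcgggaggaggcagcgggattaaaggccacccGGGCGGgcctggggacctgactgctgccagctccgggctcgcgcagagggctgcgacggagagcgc
The Cftr window held 6 GC boxes, some of them overlapping, and 71.3% G and C. That of Slc9a3 held 3 GC boxes and that of Slc4a4, 80.0% G and C, held 1. The Slc26a3 window had 39.3% G and C, no GC box and 2 HNF1 core sites. Neither the CDX site nor the cAMP response element occurred in these 4 windows. The window of Slc4a7, also called lower but not shown, had 45.0% G and C, no GC box and 1 CDX site. The other Slc4a4 window had 48.3% G and C and no match to any of the 4 motifs. The matches are letters in a window and were not tested for binding.

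Cftr (ENSMUSG00000041301, chromosome 6 from 18170687 to 18322768) encodes the cyclic nucleotide-regulated channel through which chloride and bicarbonate leave the cell. Its level was 9.21, 2.77, 18.8, 3.55 and 15.8 cpm in the GUCY2Chi libraries of mice 2, 7, 12, 14 and 15, and 35.5, 50.1, 31.2, 30.3 and 51.8 cpm in the GUCY2Cmed libraries. Every GUCY2Chi library was below every GUCY2Cmed library, and the mean was 10.0 ± 7.16 cpm (SD, n = 5) against 39.8 ± 10.4 cpm. That was 3.97-fold lower, or -1.99 on the log2 scale with a standard error of 0.48 (edgeR, adjusted p = 0.00781). With the mouse as a block it was -2.29, but the adjusted p rose to 0.0135 and the call was lost.

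Clcn2 (ENSMUSG00000022843, chromosome 16 from 20702964 to 20717746, minus strand) encodes a chloride channel of the CLC family. It had 11.6, 7.12, 40.0, 7.40 and 48.3 cpm in GUCY2Chi cells of mice 2, 7, 12, 14 and 15, against 129.6, 68.6, 68.4, 95.3 and 112.2 cpm in GUCY2Cmed cells. The groups did not overlap, and the log2 difference of -2.05 ± 0.54 (standard error; edgeR, adjusted p = 0.0116) just missed the threshold. The gene overlaps Polr2h and Fam131a, both on the opposite strand, whose counts came to 46.1% and 23.8% of those of Clcn2. Whether reads were counted by strand is not given in the sources used here, so some reads of these 3 genes could have been assigned to a neighbour.

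Slc12a2 (ENSMUSG00000024597, chromosome 18 from 57878678 to 57946821) encodes NKCC1, the basolateral cotransporter that loads chloride for secretion. Its levels were 57.8, 24.4, 35.9, 28.0 and 43.5 cpm in GUCY2Chi cells of mice 2, 7, 12, 14 and 15, and 68.7, 84.5, 50.8, 66.5 and 80.7 cpm in GUCY2Cmed cells. The groups overlapped through the GUCY2Chi library of mouse 2, which was above the GUCY2Cmed library of mouse 12, although the level was lower in GUCY2Chi in 5 of 5 mice. The change was -0.89 ± 0.24 on the log2 scale (standard error; edgeR, adjusted p = 0.0134), the smallest of the 8 negative values. That same library of mouse 2 held the most crypt stem cell transcripts of the GUCY2Chi group, 1085 cpm over 7 genes against 302 to 678 cpm in the others. It also held the most Paneth cell transcripts, 46002 cpm over 8 genes, and their part in the Slc12a2 level was not tested. Without it Slc12a2 passed the threshold, at -1.02.

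The apical anion exchangers Slc26a3 and Slc26a6 were the most abundant of the 9 per kilobase in GUCY2Cmed cells and varied widely in GUCY2Chi cells. Slc26a3 (ENSMUSG00000001225, chromosome 12 from 31390871 to 31473917), known as DRA, exchanges luminal chloride for bicarbonate. Its levels were 13.3, 4.16, 57.8, 8.40 and 65.6 cpm in GUCY2Chi cells of mice 2, 7, 12, 14 and 15, and lay between 149.7 and 189.3 cpm in GUCY2Cmed cells. The highest GUCY2Chi library thus stayed below the lowest GUCY2Cmed library, and the log2 difference was -2.50 ± 0.65 (standard error; edgeR, adjusted p = 0.0111), just outside the threshold. Its coefficient of variation was 98.4% over the GUCY2Chi libraries and 11.03% over the GUCY2Cmed libraries.

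Slc26a6 (ENSMUSG00000023259, chromosome 9 from 108853283 to 108913049), or PAT1, exchanges chloride for bicarbonate, oxalate and other anions. It had 42.6, 17.2, 265.5, 20.04 and 424.6 cpm in GUCY2Chi cells of mice 2, 7, 12, 14 and 15, against 890.8, 537.7, 581.7, 742.2 and 998.4 cpm in GUCY2Cmed cells. The groups were separate, yet the highest GUCY2Chi value was 24.6 times the lowest, the widest spread among the 9 genes. The log2 fold change was -2.28 with a standard error of 0.82, and the adjusted p of 0.0446 from edgeR missed the threshold.

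The apical sodium-proton exchangers Slc9a3 and Slc9a2 had fold changes of opposite sign. Slc9a3 (ENSMUSG00000036123, chromosome 13 from 74121457 to 74169442) encodes NHE3, the main route of electroneutral sodium absorption. It had 2.29, 0.78, 9.46, 1.31 and 12.5 cpm in GUCY2Chi cells of mice 2, 7, 12, 14 and 15, with as few as 13 counts in the library of mouse 7. In GUCY2Cmed cells it had 34.4, 22.2, 20.1, 29.9 and 44.2 cpm, all of them higher. This gave -2.52 ± 0.67 on the log2 scale (standard error; edgeR, adjusted p = 0.0120), the most negative value of the 9, and the threshold was narrowly missed.

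Slc9a2 (ENSMUSG00000026062, chromosome 1 from 40680574 to 40769273) encodes NHE2, a related apical exchanger. Its levels were 105.7, 145.3, 109.2, 128.0 and 86.1 cpm in GUCY2Chi cells of mice 2, 7, 12, 14 and 15, and 109.4, 74.4, 81.7, 94.5 and 124.3 cpm in GUCY2Cmed cells. The groups overlapped and 3 of 5 mice had the higher level in GUCY2Chi cells. The log2 fold change was 0.25, with a 95% interval from -0.17 to 0.67 (adjusted p = 0.349 from edgeR).

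Bicarbonate is brought into the cell by the sodium-bicarbonate cotransporters Slc4a4 (NBCe1) and Slc4a7 (NBCn1), and both were called lower. Slc4a4 (ENSMUSG00000060961, chromosome 5 from 88886818 to 89239653) had 3.03, 2.77, 14.9, 3.24 and 14.5 cpm in GUCY2Chi cells of mice 2, 7, 12, 14 and 15, and 45.9, 29.2, 29.9, 38.5 and 42.7 cpm in GUCY2Cmed cells. The groups were separate, at a log2 difference of -2.27 ± 0.51 (standard error; edgeR, adjusted p = 0.00526). It was the only one of the 9 genes still called with the mouse as a block in edgeR, at an adjusted p of 0.00907.

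Slc4a7 (ENSMUSG00000021733, chromosome 14 from 14702279 to 14799940) had 13.04, 13.1, 49.1, 24.8 and 53.6 cpm in GUCY2Chi cells of mice 2, 7, 12, 14 and 15, and 72.7, 120.7, 73.2, 100.9 and 95.9 cpm in GUCY2Cmed cells. Each GUCY2Chi library was again below each GUCY2Cmed library. The log2 difference was -1.59 ± 0.40 (standard error; edgeR, adjusted p = 0.00937), and with the block -1.82 (adjusted p = 0.0158), which lost the call.

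**Figure D2:**
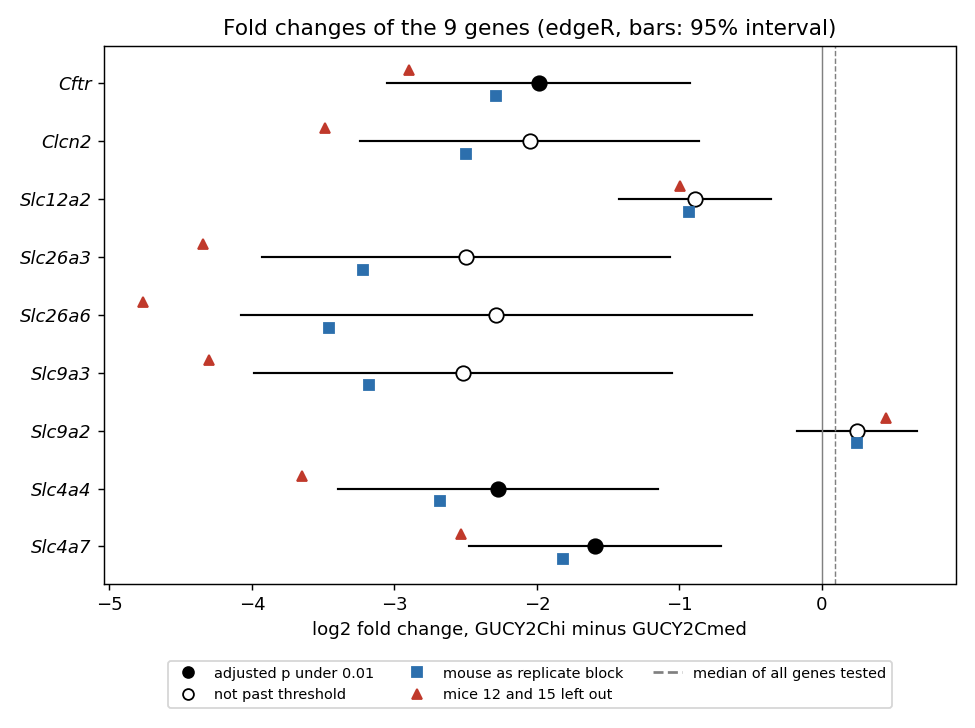
Fold change of each gene on the log2 scale (circles, filled where adjusted p was under 0.01) with its 95% interval, beside the values with the mouse as a block (squares) and without the 4 libraries of mice 12 and 15 (triangles). The circles of 8 genes lie between -2.52 and -0.89, and that of Slc9a2 lies at 0.25.

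The number of calls depended on the fit. With the mouse as a block, edgeR called 1 of the 9 genes lower, where 4.96% of all genes were lower and 8.24% higher, and limma-voom called 7 (8.8% of all genes lower). Without the block, limma-voom called 8 of the 9 genes (11.4% of all genes) and DESeq2 also 8 (14.2%), all lower, and neither called Slc9a2. With any single library left out, 0 to 6 of the 9 genes were called. The most were called without the GUCY2Chi library of mouse 15, and none was called without any 1 of 6 libraries, the GUCY2Chi libraries of mice 7 and 14 and the GUCY2Cmed libraries of mice 2, 12, 14 and 15. No fold change turned its sign in any of these fits.

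Set against the GUCY2Cmed library of the same mouse, the levels in GUCY2Chi cells fell into a pattern that 7 of the genes shared. Slc26a6 stood at 4.79%, 3.21% and 2.70% of its GUCY2Cmed level in mice 2, 7 and 14 and at 45.6% and 42.5% in mice 12 and 15. Slc9a3 stood between 3.53% and 6.65% in mice 2, 7 and 14 and at 47.1% and 28.2% in mice 12 and 15, and Slc26a3 between 2.20% and 7.22% against 38.6% and 38.5%. For Slc4a4 the values were between 6.60% and 9.49% against 49.9% and 34.1%, and for Clcn2 between 7.77% and 10.4% against 58.5% and 43.1%. Slc4a7 stood between 10.8% and 24.6% in mice 2, 7 and 14 and at 67.1% and 55.9% in mice 12 and 15. The gap was narrowest for Cftr, at 26.0%, 5.54% and 11.7% in mice 2, 7 and 14 against 60.2% and 30.5%, so that mouse 2 came near mouse 15.

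The summed enterocyte list moved in the same way, at 7.16%, 8.13% and 8.29% in mice 2, 7 and 14 and at 45.6% and 42.1% in mice 12 and 15. Of its 20 genes, 18 were lower in GUCY2Chi cells without overlap (13.2% of all genes) and 5 were called lower (8.79% of all genes). None of the enterocyte genes was absent from all libraries, and the part of enterocyte transcripts in the levels of the 7 transport genes was not tested. A list of 12 proliferation genes was also lower in GUCY2Chi cells, from 93.6 to 239.4 cpm against 315.2 to 718.5 cpm in sum. The list had 10 of its 12 genes called lower, beside 8.79% of all genes. Its percentages were 55.5%, 13.03%, 55.6%, 24.7% and 56.9% in mice 2, 7, 12, 14 and 15, and its part in the transport genes was not tested either. Slc12a2 did not follow the pattern of the enterocyte list, at 84.2%, 28.8%, 70.7%, 42.1% and 53.8% of its GUCY2Cmed level in mice 2, 7, 12, 14 and 15, and neither did Slc9a2, at 96.7%, 195.2%, 133.6%, 135.3% and 69.3%. Without the 4 libraries of mice 12 and 15, chosen because their enterocyte content was known, 7 of the 9 genes were called lower, where 9.83% of all genes were. The GUCY2Chi libraries left out were those with the highest levels of these 7 genes, so larger falls followed from the choice. Neither that count nor the fold changes are separate support. The fold changes were -4.76 for Slc26a6, -4.34 for Slc26a3, -4.30 for Slc9a3, -3.65 for Slc4a4, -3.49 for Clcn2, -2.90 for Cftr and -2.53 for Slc4a7. Slc12a2 had -0.996 (adjusted p = 0.0512) and Slc9a2 0.45 (adjusted p = 0.153) in that edgeR fit.

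**Figure D3:**
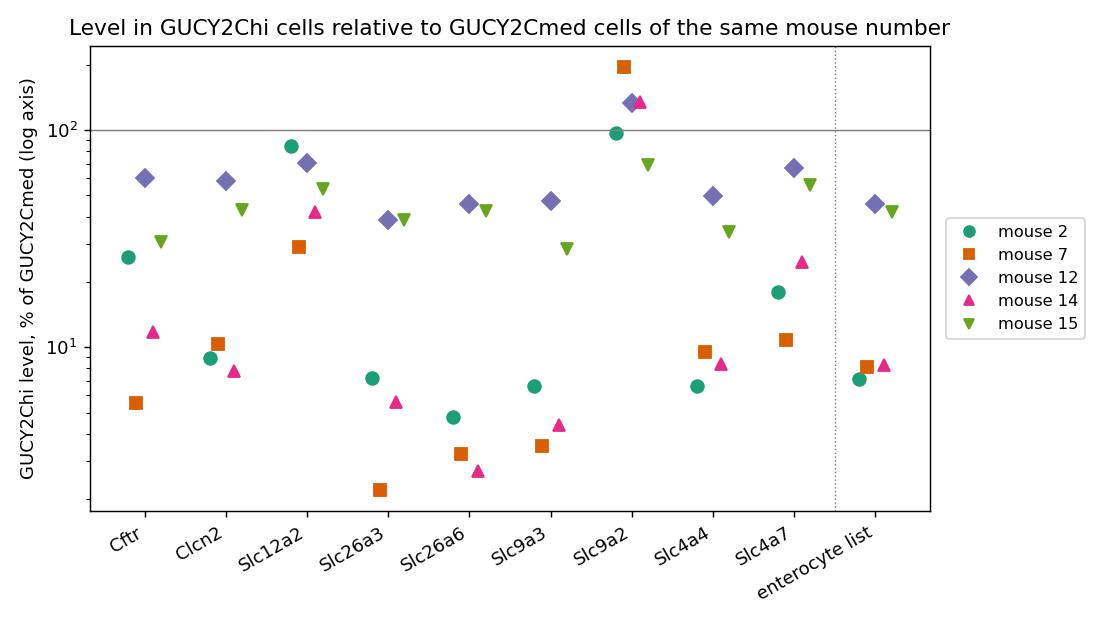
Level of each gene in GUCY2Chi cells as a percentage of that in GUCY2Cmed cells of the same mouse number, on a log axis, with the summed enterocyte list at the right. Mice 12 and 15 lie between 28.2% and 67.1% for the 7 genes that follow the list, and Slc9a2 lies between 69.3% and 195.2%.

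Whether pairs of these genes changed by unequal amounts was tested on the ratio of their counts within each library, in which library size cancels, by an exact two-sided permutation test with adjustment over 6 ratios and a threshold of 0.05. A design of 5 against 5 libraries allows no p below 0.00794. The ratio of Slc9a3 to Slc9a2 differed, by -3.46 on the log2 scale (standard error 0.89, p = 0.00794 by the exact permutation test, adjusted 0.0238). Per kilobase of gene length it lay between 0.00711 and 0.184 in GUCY2Chi libraries and between 0.313 and 0.451 in GUCY2Cmed libraries, without overlap. So did the ratio of Cftr to Gucy2c, by -3.93 (standard error 0.84, exact permutation p = 0.00794, adjusted 0.0238), though the gate selected for one side of it. Its median per kilobase was 0.00308 in GUCY2Chi cells and 0.0493 in GUCY2Cmed cells.

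The ratio of Cftr to Slc12a2 was lower in 5 of 5 mice, with a log2 difference of -1.39 (standard error 0.44, exact permutation p = 0.0238, adjusted 0.0357). Its groups overlapped through the GUCY2Chi library of mouse 12, at 0.440 per kilobase, which lay inside the GUCY2Cmed range of 0.384 to 0.539. Slc4a4 was lower relative to Slc4a7, at -0.86 on the log2 scale (standard error 0.30, exact permutation p = 0.0238, adjusted 0.0357), also in 5 of 5 mice and with overlap. The ratio of Slc26a3 to Slc26a6 differed by 0.15 ± 0.30 (standard error) and that of Cftr to Clcn2 by 0.16 ± 0.33, with exact permutation p of 0.643 and 0.619, so that no unequal change was detected within either pair. Taking the differences within mice, all 5 mice agreed in sign for each of the 4 ratios that passed. For Cftr to Gucy2c neither the pass nor that agreement is independent of the sort, which selected for Gucy2c. An exact sign-flip test over 5 mice cannot reach the threshold.

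**Figure D4:**
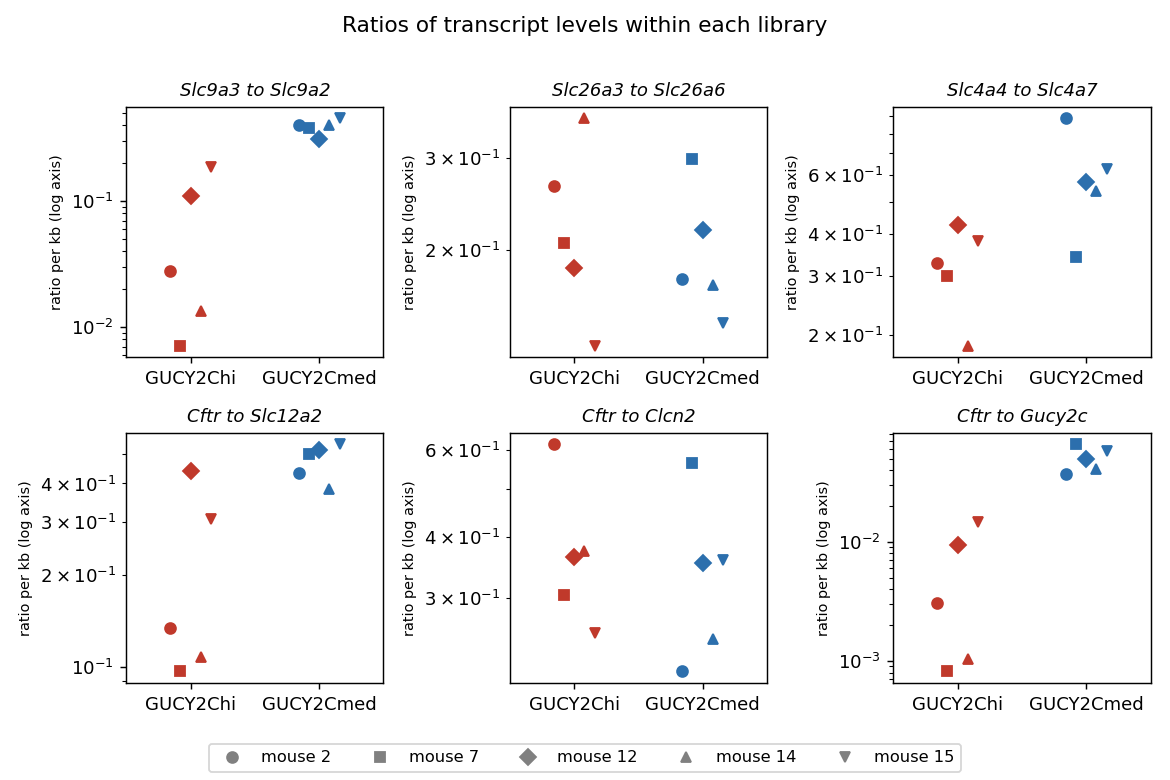
Ratio of transcript levels per kilobase within each library, on log axes, in GUCY2Chi (red) and GUCY2Cmed (blue) libraries, 1 symbol a mouse. Slc9a3 to Slc9a2 and Cftr to Gucy2c separate the groups, and Slc26a3 to Slc26a6 and Cftr to Clcn2 overlap across their ranges.

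The order of levels was compared as cpm per kilobase of the gene length in the count table. In GUCY2Cmed cells Slc26a6 came first with 138.6 ± 36.4 cpm per kilobase (SD, n = 5), followed by Slc26a3 with 26.5 ± 2.92 and Clcn2 with 15.7 ± 4.47, and neither of the first 2 steps overlapped. From Clcn2 down each gene overlapped the next, through Slc9a2 (13.9), Slc12a2 (10.8), Slc4a7 (6.09), Slc9a3 (5.48), Cftr (5.12) and Slc4a4 (3.44). In GUCY2Chi cells Slc26a6 again had the highest mean, 28.5 ± 33.9 cpm per kilobase, but Slc9a2, with 16.4 ± 3.23, was above it in 3 of 5 libraries. Slc9a2 was clear of Slc12a2 (5.81), and below that all neighbours overlapped, down to Slc4a4 (0.712). The order depends on the length used. By the deposited FPKM, 5 of the 9 genes kept their place in GUCY2Cmed cells and 2 in GUCY2Chi cells, and Slc12a2 fell from the fifth to the eighth place in GUCY2Cmed cells, its FPKM length being equal to the table's and those of the others 0.232 to 0.582 of it.

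For each gene the 3 genes with the most similar profile over the 10 libraries were sought, by the root mean square difference of mean-centred log2 cpm among genes with at least 5 cpm on average. For Cftr these were Rgn, Slc28a3 and Car9, at a difference of 0.23 to 0.24, and for Slc9a3 Aldh1l1, Slc6a20a and Slc7a7 (0.18 to 0.22). Slc26a3 was nearest to Ccl25, Maoa and Creb3l3 (0.18 to 0.23) and Slc26a6 to Slc28a1, Exoc3l4 and Hsd17b6 (0.15 to 0.17). Slc4a4 was nearest to Vwce, Sult2b1 and Slc27a4, Slc4a7 to Tubal3 and Tmem243, and Clcn2 to Vipr1, Vwce and Slc5a6. Slc12a2 was nearest to Apobec1, Leng9 and Top1mt, and Slc9a2 to Dennd4c, Eif4g2 and Pdxk. Among the 9 genes themselves Slc4a4 and Clcn2 were the closest pair, at 0.21.

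A further 7 lists of genes of epithelial ion transport were counted in the same test. Of 96 genes listed, 79 were tested, 13 were called higher (16.5%) and 17 lower (21.5%), beside 13.9% and 8.79% of all genes. With the mouse as a block 6 of the higher and 9 of the lower calls remained among the 79 genes. In that fit 8.24% of all genes were called higher and 4.96% lower, so the higher calls were near the share of all genes. They included Slc26a4, Slc4a8, Slc9a7, Car6, Car8 and Fxyd3 among the higher genes and Prkg2, Pde5a, Vipr1, Slc9a3r1, Pdzk1, Ezr, Slc4a5 and Ano6 among the lower. For the 15 others the adjusted p was between 0.0106 and 0.0285.

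The list of cyclic nucleotide control held 15 genes, of which 4 rose and 5 fell. Gucy2c rose, as the gate selected it, from 404 ± 64.7 to 1322 ± 526 cpm (SD, n = 5), as did Prkar2b (2.58 on the log2 scale), a regulatory subunit of cyclic AMP-dependent kinase, and Abcc4 (3.11), an exporter of cyclic nucleotides. Casr, the calcium-sensing receptor, had no count in any GUCY2Cmed library and was at least 15.9-fold higher, against a floor of 3 counts per library. Prkg2, the cyclic GMP-dependent kinase of the brush border, fell (-1.11), as did Prkar2a (-0.70), Pde5a, a phosphodiesterase of cyclic GMP (-1.45), and Vipr1, a receptor for vasoactive intestinal peptide (-2.30). The most abundant gene, Guca2b, which encodes uroguanylin, had -2.45 with an adjusted p of 0.0192 from edgeR. With the mouse as a block all 4 higher calls of this list and 2 of its lower calls, Prkar2a and Pde3a, were lost (adjusted p from 0.0107 to 0.0244).

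Scaffolds and kinases that hold or regulate the transporters held 15 genes, 2 higher and 5 lower. The most abundant of them, Slc9a3r1, the scaffold NHERF1, fell from 1980 ± 180 to 499.5 ± 214 cpm (SD, n = 5), or -1.99 on the log2 scale. Pdzk1, another PDZ scaffold, also fell (-1.99), and so did Ezr, the membrane-to-actin linker ezrin (-1.80). The related kinases of cation-chloride cotransporters moved apart, Stk39 (SPAK) higher (0.96) and Oxsr1 (OSR1) lower (-0.82). Gopc, which binds CFTR in the Golgi, rose (0.81). With the block the calls of Stk39, Oxsr1, Gopc and Ahcyl2 were lost.

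Among the other SLC26 and SLC4 carriers, 9 of 13 were tested, 2 rose and 2 fell. Slc26a4, the exchanger pendrin, had 39.3 ± 19.0 cpm in GUCY2Chi cells against 0.777 ± 0.695 cpm (SD, n = 5), 5.66 higher on the log2 scale (edgeR, adjusted p = 1.63e-04). Slc4a8, a sodium-driven chloride-bicarbonate exchanger, rose by 3.79 from 0.809 to 11.3 cpm. Slc4a5 (-2.25) and Slc26a11 (-1.32) fell, and Slc26a2, the most abundant, had 0.20 (adjusted p = 0.578 from edgeR). The call of Slc26a11 was lost with the block. Of the other sodium-proton exchangers, 6 of 8 were tested and 1 was called, Slc9a7, an exchanger of intracellular membranes, which rose by 3.58 to 2.78 cpm. The most abundant of them, Slc9a8, had 12.7 cpm against 14.3 cpm.

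Of 16 other chloride channels and cotransporters, 13 were tested and 1 was called, Ano6, which fell (-2.11) from 154.4 ± 60.4 to 35.7 ± 13.8 cpm (SD, n = 5). Clca1, a goblet cell product, was the most abundant at 1304 ± 1709 cpm against 909 ± 488 cpm (log2 difference 0.52, edgeR, adjusted p = 0.659). That mean rested on the GUCY2Chi library of mouse 2, without which it was 559.3 cpm and the log2 difference -0.61. In the list of carbonic anhydrases, enzymes that make bicarbonate from carbon dioxide, 2 of the 8 tested genes rose and 2 fell. Car8, a related protein without that activity, rose by 2.45 and Car6, a secreted enzyme, by 3.05. The membrane-bound enzymes Car4 (-2.16) and Car9 (-2.04) fell, and both calls were lost with the block. Of 13 tested genes of the sodium pump, potassium recycling and the sodium channel, 2 rose and 2 fell. Fxyd3, a regulator of the pump, rose by 4.26 from 1.77 ± 0.267 to 34.3 ± 10.7 cpm (SD, n = 5, adjusted p = 3.63e-06 from edgeR), and the pump subunit Atp1b3 by 0.92. Kcnn4, a calcium-activated potassium channel, was among those that fell (-1.65). The block lost the calls of Atp1b3 and Kcnn4.

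**Figure D5:**
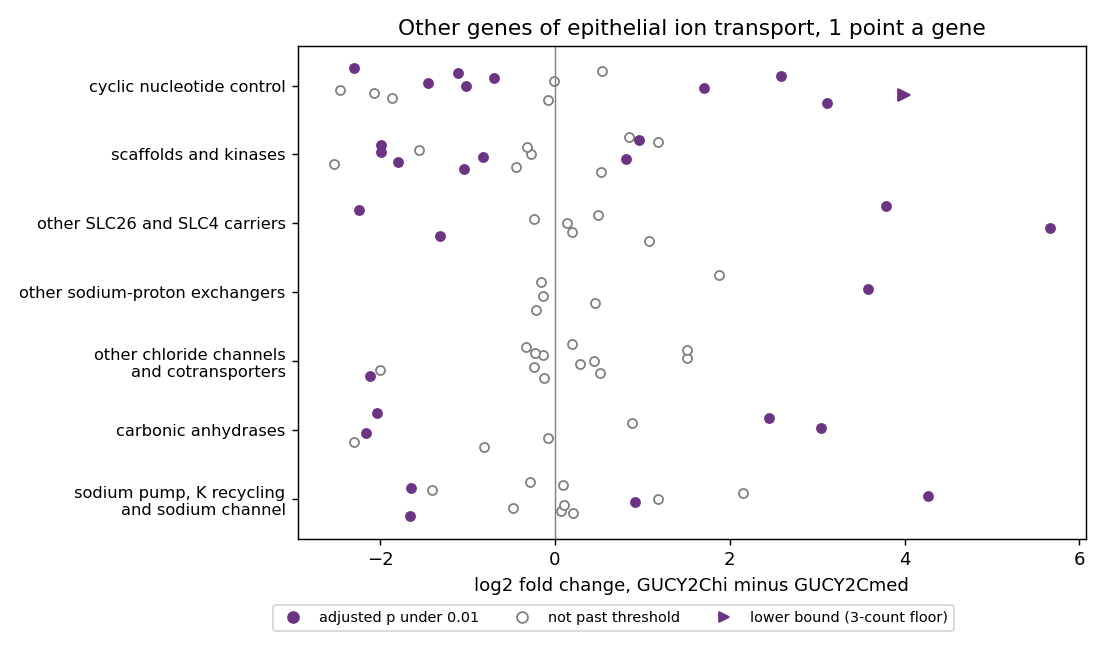
Log2 fold change of the 79 tested genes of the 7 lists, 1 point a gene, filled where adjusted p was under 0.01. Casr is drawn as a triangle and Slc12a4 as an open point, both at their lower bounds. Filled points lie on both sides of 0 in 5 of the 7 lists, and the highest is Slc26a4 at 5.66.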

How the data were processed

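RNA of GUCY2Chi and GUCY2Cmed cells was measured in 10 libraries, 5 per group. The deposited counts are unnormalized whole numbers of reads per gene, made by the sequencing provider, who aligned reads with STAR. The labels name the build mm9, whereas 8 of the 9 genes start or end within 10 bases of their place on GRCm38 and 0 of 9 on NCBIM37. The deposited FPKM, made by the authors' provider from counts and gene length, served only for the order of levels. Columns of the authors' comparison hold fold changes and p-values from limma 3.40.6 and edgeR 3.26.8, per the labels, and were not used, nor were 10 columns of normalized values. Whether counting used strand is not given in the sources used here.

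The filter required over 0.5 cpm in 3 or more libraries (15703 of 54532 genes), and tests ran in R 4.3.3 with edgeR 4.0.16 (TMM, quasi-likelihood, no mouse term). Alternatives used DESeq2 1.42.0 and limma 3.58.1, and figures were drawn with Python 3.11.15. The standard errors and 95% intervals of the edgeR fold changes were derived from the fold change and the test statistic. They therefore restate the p-value and are no separate estimate. The ratios used a pseudocount of 0.5 counts. On simulated data over 15703 genes, edgeR called 46 of 100 genes changed 4-fold, 1 of 100 changed 2-fold and 0 unchanged genes. For limma-voom the counts were 42, 1 and 0, and for DESeq2 77, 23 and 15. Only those genes were changed there, and each gene had the same spread in both groups. The real data held 2186 higher and 1381 lower calls, so these rates do not measure the power in them. A gene that missed the threshold may still have changed. A criterion of 90 of 100 calls at 4-fold, set beforehand as a guess, was not met. It was replaced by median fold changes near the simulated ones, no wrong sign and few false calls for edgeR.

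Both groups were sorted from the same 5 mice, so shared numbers were taken to pair the libraries. Deviations from the group means correlated within mice at -0.22 to 0.27. Named were the 9 genes, up to 4 called genes in each direction and the most abundant gene of each list, and the 3 nearest profiles. Results for some of these genes are not reported here. The 9 genes, the lists and the tests were chosen with earlier results of these data known. The alternatives were another tool, scaling, filter or threshold, the mouse as a block, and libraries left out. The floor of 3 counts covers counting error only. P-values of the fits without a mouse term and of the ratio test measure the spread between libraries within each group. Of the fits, only those with the mouse as a block took the pairing into account. All of them rest on these 5 mice.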

Additional observations from a re-analysis of the deposited data

Results flagged for a closer look

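Over 94 groups of 5 libraries, 1 for each gene or ratio named and each sort, 4 held a library far from the others by Dixon's criterion at 95%, where chance gives about 1 in 20. None of the 4 was among the 9 genes or their ratios. Clca1 reached 4282 cpm in the GUCY2Chi library of mouse 2, with at most 1116 cpm in the other GUCY2Chi libraries. Slc9a7 was lowest in the GUCY2Chi library of mouse 15, at 1.70 cpm, with at least 2.89 cpm in the others. Car6 reached 1.35 cpm in the GUCY2Cmed library of mouse 14 and Atp1b3 90.9 cpm in that of mouse 7, above 0.648 and 58.7 cpm.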

How the results depend on the processing

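None of the 9 genes changed the sign of its fold change under any alternative, and Slc9a2 was called under none. The count of the 9 called lower was 3 and became 8 with limma-voom, DESeq2, an adjusted p under 0.05 or the forebrain neuron list as a covariate (added after seeing the data), 7 with the replicate block in limma-voom or without mice 12 and 15, 6 without a filter, and 1 with the replicate block in edgeR, library size only or at least 10 counts in every library. RLE factors gave 2. The fit without mice 12 and 15 left out the GUCY2Chi libraries highest in the genes it called, so its count is no independent check. Leaving out 1 library gave 0 to 6, and 0 were called higher throughout. Library size only moved the median log2 fold change of all genes from 0.09 to 0.39.

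Over all genes, 2186 higher calls became 1294 with the replicate block in edgeR and 3367 at 0.05 (1663 to 2546 with 1 library left out). The 1381 lower calls became 2235 with DESeq2, 779 with the block, 557 with library size only and 2767 at 0.05 (506 to 1606). Of the pathway lists, 13 higher calls became 6 with the block and 8 with at least 10 counts (10 to 14), and 17 lower calls became 9 with the block and 9 with library size only (6 to 19, the fewest without the GUCY2Cmed library of mouse 15). The filter of at least 10 counts left the higher genes Casr, Abcc4, Slc26a4, Slc4a8, Slc9a7 and Car6 untested.

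With 1 library left out, the log2 ratio differences ranged from -4.05 to -2.88 for Slc9a3 to Slc9a2, from -1.04 to -0.67 for Slc4a4 to Slc4a7, from -1.71 to -1.16 for Cftr to Slc12a2 and from -4.47 to -3.43 for Cftr to Gucy2c. All 4 lost their calls without the GUCY2Cmed library of mouse 2, 12, 14 or 15, Cftr to Slc12a2 also without that of mouse 7, and Slc4a4 to Slc4a7 also without the GUCY2Chi library of mouse 2, 7 or 14 (adjusted exact permutation p from 0.0595 to 0.0833). Slc26a3 to Slc26a6 ranged from -0.035 to 0.33 and Cftr to Clcn2 from -0.032 to 0.36, reversed without the GUCY2Chi libraries of mice 14 and 2. By FPKM 2 and 5 genes held their rank in GUCY2Chi and GUCY2Cmed cells, and the median percentage of Slc12a2 moved to 77.1% with library size only. The cause of these shifts was not tested. Shallow counts limit Slc9a3 most, with 13 in 1 library.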
